A study of Mus musculus with 8 samples.

Results

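The microRNAs miR-132-3p (mmu-miR-132-3p on the array) and miR-212-3p (mmu-miR-212-3p) are 2 of the 1023 mouse miRNA names on the arrays used here, and were read with 4 of the 2645 mouse miRNA probes. Their probes were taken by name, all probes of each. The 2 members themselves were chosen with earlier results of these data known. The RNA came from whole kidneys of the outbred mouse stock CD-1. The mice had received either tacrolimus at 1 mg per kg per day (4 arrays) or, as control, physiological serum (4 arrays), and treatment lasted 28 days. Total RNA (0.1 µg, integrity number 9 for every sample) was hybridised to Agilent mouse miRNA arrays in the single dye Cy3. The sources used here give no age, sex or genotype beyond the stock. Replicates are numbered, but whether each number is its own mouse is not said, and the p-values therefore measure only how these samples vary, which may be technical variation. In whole kidney RNA, fewer cells of a type and less RNA per cell cannot be told apart.

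Tacrolimus inhibits calcineurin, the calcium-dependent phosphatase that activates the NFAT transcription factors. miR-132 and miR-212 are made from neighbouring hairpins of a shared primary transcript, which the calcium- and cAMP-responsive factor CREB induces in active neurons. Outside the nervous system the pair is known from heart muscle, where raised levels drive hypertrophy and calcineurin-NFAT signalling, and from the vessel wall, where miR-132 promotes angiogenic growth. The pair was compared here to see whether its level in the kidney differed after the calcineurin inhibitor.

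The mature sequences are shown because they explain both why the pair is treated as one family and how the array separates its members. Capitals mark the seed, bases 2 to 8, by which a miRNA recognises its targets, and the 5-prime partner arms of the same hairpins stand below.
miR-132-3p: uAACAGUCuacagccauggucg
miR-212-3p: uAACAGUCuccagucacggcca
miR-132-5p: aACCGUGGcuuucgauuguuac
miR-212-5p: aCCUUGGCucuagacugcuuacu

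Both 3-prime arms (2 of 2 matched by name in RefSeq, GRCm38.p6) are 22 bases long and carry the seed AACAGUC, which no other of the 1679 mature mouse miRNA names in that table has. They are identical at their first 9 bases and at 17 of 22 positions in all. Counted from the 5-prime end, with miR-132-3p first and miR-212-3p second, the substitutions are A10C, C14U, U17C, U20C and G22A, all downstream of the seed. The partner arms have different seeds from each other.

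The hairpins lie head to tail on the plus strand of chromosome 11, Mir212 at chr11:75173388-75173478 and Mir132 at chr11:75173682-75173747 in GRCm38.p6, with 203 bases between them. Neither overlaps another annotated gene in that table. The nearest genes on either side are Hic1 and Ovca2, both protein-coding. The hairpins follow with the mature arms in capitals, the 5-prime arm first.
Mir212 hairpin: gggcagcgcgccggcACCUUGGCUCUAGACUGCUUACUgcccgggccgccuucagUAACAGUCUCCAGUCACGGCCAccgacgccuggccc
Mir132 hairpin: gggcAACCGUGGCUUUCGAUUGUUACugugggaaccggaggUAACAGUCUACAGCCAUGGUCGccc

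Each member was read by a longer and a shorter probe that pair with its 3-prime end. The probe sequences are shown because a seed shared by both members could otherwise blur them. Capitals mark probe bases that face a position at which the other member differs.
miR-132-3p probe of 16 bases: CgAccAtgGctgTaga
miR-132-3p probe of 15 bases: CgAccAtgGctgTag
miR-212-3p probe of 14 bases: TgGccGtgActgGa
miR-212-3p probe of 13 bases: TgGccGtgActgG

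The miR-132-3p probes pair with bases 7 to 22 and 8 to 22 of their target, and the miR-212-3p probes with bases 9 to 22 and 10 to 22. Each of the 4 probes has 5 mismatches to the other member, at the positions listed above. Cross-hybridisation between the members was not measured. Levels of these 4 probes are not set against each other below, since a probe's length and base composition set its brightness. Where miRNAs are ranked by signal or markers are summed below, brightness is meant and not amount.

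The arrays correlated at 0.987 to 0.997 over the 194 miRNAs that were tested, and 147 to 220 miRNAs were detected per array. The kidney tubule markers miR-192-5p, miR-194-5p, miR-204-5p, miR-200b-3p and miR-30a-5p were detected on every array of both groups, while the liver marker miR-122-5p was detected on none (0). Of 2 striated muscle markers, miR-133a-3p was detected on no array (0) and miR-1a-3p on 0 control and 2 tacrolimus arrays. Tacrolimus 4 stood apart, with the fewest detected miRNAs (147), the widest spread of its negative controls (SD 20.01, against 4.45 to 10.5 on the other arrays) and 1 of 8 quality metrics outside the software's range. By the array headers, all control arrays had slide row 1 and all tacrolimus arrays slide row 2. An effect of the row therefore cannot be told apart from one of treatment. Each of the 4 slide columns named there held 1 control and 1 tacrolimus array. Whether all 8 arrays shared the same slide was not checked here. Precision is limited by how few arrays there are.

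miR-132-3p was present at a low signal in kidneys of both groups and did not pass the test for a difference between them. The mean intensity of its 16-base probe, before any scaling between arrays, was 82.5, 58.2, 54.1 and 68.5 on control arrays 1 to 4. On tacrolimus arrays 1 to 4 it was 83.7, 93.0, 51.5 and 87.9. The lowest and the highest of the 8 intensities both belonged to tacrolimus arrays, and the groups overlapped.

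The probe was detected, that is, well above background in at least 0.5 of its kept spots, on 4 control arrays and 3 tacrolimus arrays. The exception was tacrolimus 4, where 5 of 17 kept spots were well above background although the intensity of 87.9 was the second highest of the series. This is the array with the widest negative control spread. Whether that spread bears on the missed detection was not tested. Its value was kept in the fit.

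After scaling, levels are given on a log2 scale on which 0 is the 75th percentile of an array, taken over probes seen on every array. miR-132-3p stood at -4.94, -5.04, -4.72 and -4.67 on control arrays 1 to 4. It stood at -4.74, -4.61, -5.00 and -4.65 on the tacrolimus arrays in the same order. On this scale 3 tacrolimus arrays lay above the control median and tacrolimus 3 lay near the lowest control array. The means were -4.84 ± 0.18 in control and -4.75 ± 0.18 in tacrolimus kidneys (SD, n = 4 each). The difference of 0.091 (SE 0.114) corresponds to 1.07-fold, with a 95% interval from 0.891-fold to 1.27-fold, and an adjusted p of 0.736 in limma. An exact two-sided permutation test of the arrays gave p = 0.486, where the design allows no p below 0.0286.

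miR-212-3p was detected on all 8 arrays and did not pass the test either. The intensity of its 14-base probe was 715, 473, 493 and 496 on control arrays 1 to 4. On tacrolimus arrays 1 to 4 it was 656, 558, 552 and 655. Control 1 was the brightest, and the other 3 control arrays lay below every tacrolimus array before scaling.

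The order changed with scaling, since the intensity that each array was divided by ranged from 1431 to 2527 and was highest on control 1. Scaled, miR-212-3p stood at -1.82, -2.02, -1.54 and -1.81 on control arrays 1 to 4. It stood at -1.77, -2.02, -1.58 and -1.76 on tacrolimus arrays 1 to 4, so that the groups covered nearly the same range. The means were -1.80 ± 0.20 and -1.78 ± 0.18 (SD, n = 4 each). The difference of 0.014 (SE 0.122) corresponds to 1.01-fold, with a 95% interval from 0.835-fold to 1.22-fold, and an adjusted p of 0.967 in limma (exact two-sided permutation p = 0.8).

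**Figure D1:**
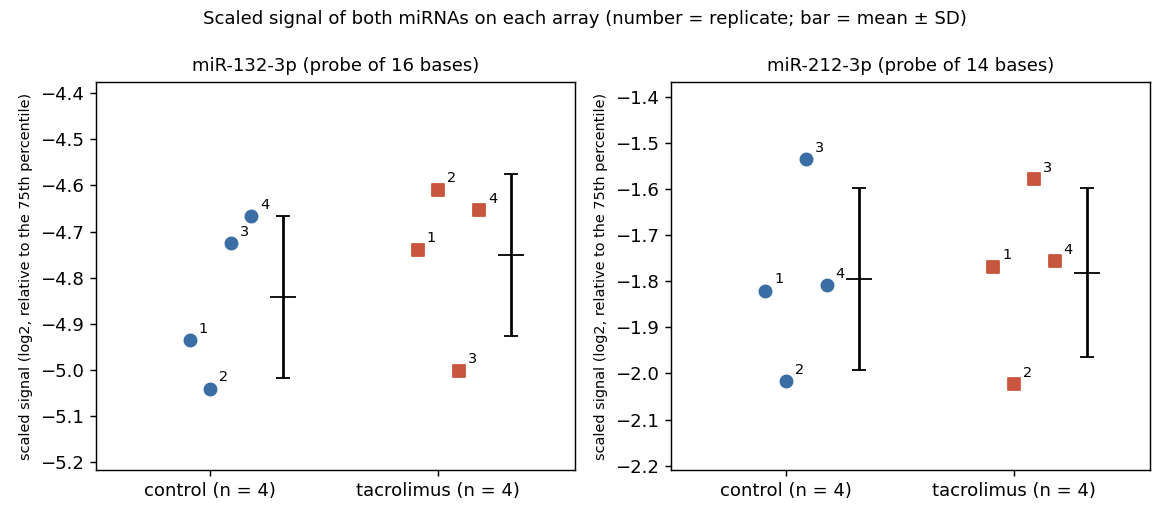
Scaled signal (log2, relative to the 75th percentile of detected probes) of miR-132-3p, left, and miR-212-3p, right, on each array; points are arrays, numbers are replicates, and bars are the mean ± SD of 4 arrays. The groups overlap in both panels, with means of -4.84 and -4.75 for miR-132-3p and of -1.80 and -1.78 for miR-212-3p.

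Of the 2 members, 0 passed the threshold of an adjusted p under 0.05 in limma and 0 had an unadjusted p under 0.05. Over all 194 tested miRNAs, 3.09% passed the threshold (6 higher and 0 lower after tacrolimus), 15.5% had an unadjusted p under 0.05, and 10.3% had groups that did not overlap, which was the case for 0 of the 2 members. Other scalings moved the calls to 6 higher and 1 lower (quantile) or 6 higher and 2 lower (median of detected probes). They were 0 in either direction with the 75th percentile of all probes and with no scaling, and normexp background left 0 higher and 1 lower. Only 9.60% to 15.2% of probes were detected per array, so the percentile of all probes is set mainly by undetected signal. With it the SE was 0.396 for both members. By size of difference, irrespective of sign, miR-132-3p ranked 103 and miR-212-3p ranked 181 of 194. The median difference over all tested miRNAs was 0.039, and the median size irrespective of sign was 0.096.

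**Figure D2:**
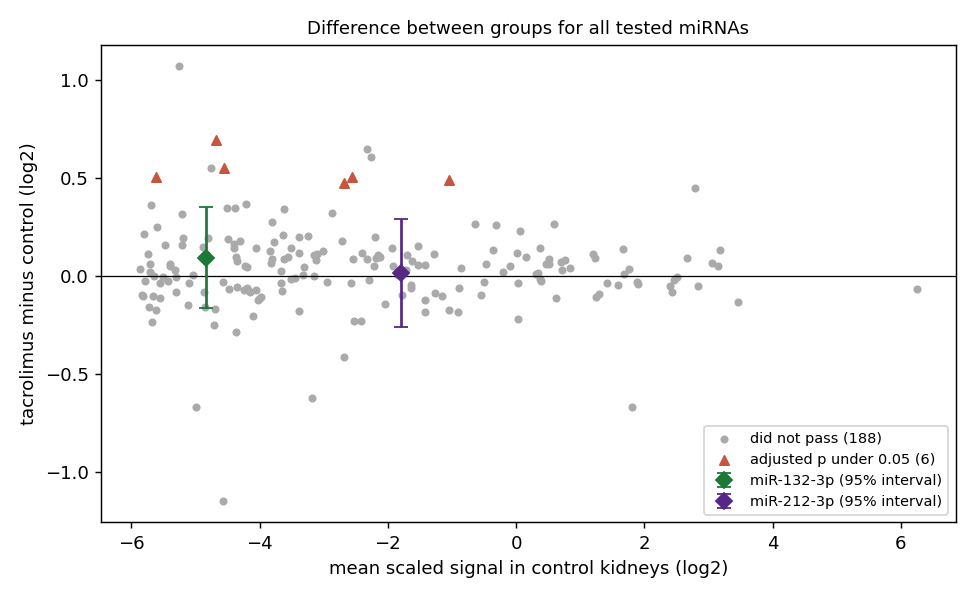
Difference between groups (tacrolimus minus control, log2) against the mean scaled signal in control kidneys (log2) for the 194 tested miRNAs; triangles passed an adjusted p under 0.05 and diamonds are both members with their 95% intervals. The intervals of miR-132-3p and miR-212-3p include 0, and both points lie within the cloud of miRNAs that did not pass.

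The difference of neither second probe passed the test. The 13-base probe of miR-212-3p was detected on all 8 arrays, with scaled means of -3.31 ± 0.26 in control and -3.20 ± 0.18 in tacrolimus kidneys (SD, n = 4 each). Its difference was 0.11 (SE 0.140, adjusted p = 0.735 in limma). The 15-base probe of miR-132-3p had intensities of 22.9 to 30.3 on control and 23.3 to 41.5 on tacrolimus arrays. It was detected on 0 control arrays and on 2 tacrolimus arrays, replicates 1 and 2. After scaling, 3 values of each group lay at the floor set for undetected signal (-5.96), so its difference of -0.018 (adjusted p = 0.910 in limma) gives no measure of size.

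Each probe is printed in 20 spots per array, which gives the reading error within an array. For miR-132-3p, 17 to 19 spots of the 16-base probe were kept, with a coefficient of variation of 8.04% to 13.7%. For miR-212-3p, 17 to 20 spots of the 14-base probe were kept, with one of 5.16% to 10.8%. The standard error over spots was at most 0.045 for miR-132-3p and 0.034 for miR-212-3p on the log2 scale. The SD between arrays of a group, 0.18 to 0.20, also holds the variation between samples. The residual SD of 0.176 for miR-132-3p and of 0.191 for miR-212-3p ranked 136 and 140 of 194 from the lowest, where the median over all tested miRNAs was 0.133.

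After scaling, arrays of the same slide column were alike in miR-212-3p and not in miR-132-3p. This pattern was picked after its values were seen. Within columns 1 to 4, tacrolimus minus control was 0.052, -0.0065, -0.043 and 0.052 for miR-212-3p. The column means of this miRNA ranged over 0.46, from -2.02 in column 2 to -1.56 in column 3. For miR-132-3p the differences within columns 1 to 4 were 0.20, 0.43, -0.28 and 0.012, so that 3 columns were higher after tacrolimus and 1 lower. Before scaling, the 14-base probe of miR-212-3p read 715, 473, 493 and 496 on the control arrays of columns 1 to 4. On the tacrolimus arrays it read 656, 558, 552 and 655. In each group the intensity divided by was lowest in column 3, at 1431 on control and 1649 on tacrolimus.

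With the slide column as a block, which equals the replicate number here, the difference of miR-212-3p had an SE of 0.070 in place of 0.122 (95% interval 0.899-fold to 1.13-fold, adjusted p = 0.917 in limma). That of miR-132-3p had an SE of 0.122 (95% interval 0.870-fold to 1.30-fold, adjusted p = 0.740 in limma). The 13-base probe of miR-212-3p showed differences of 0.039, 0.23, -0.0033 and 0.16 within columns, with its highest pair of values in column 3 and its lowest in column 2, as for the 14-base probe.

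**Figure D3:**
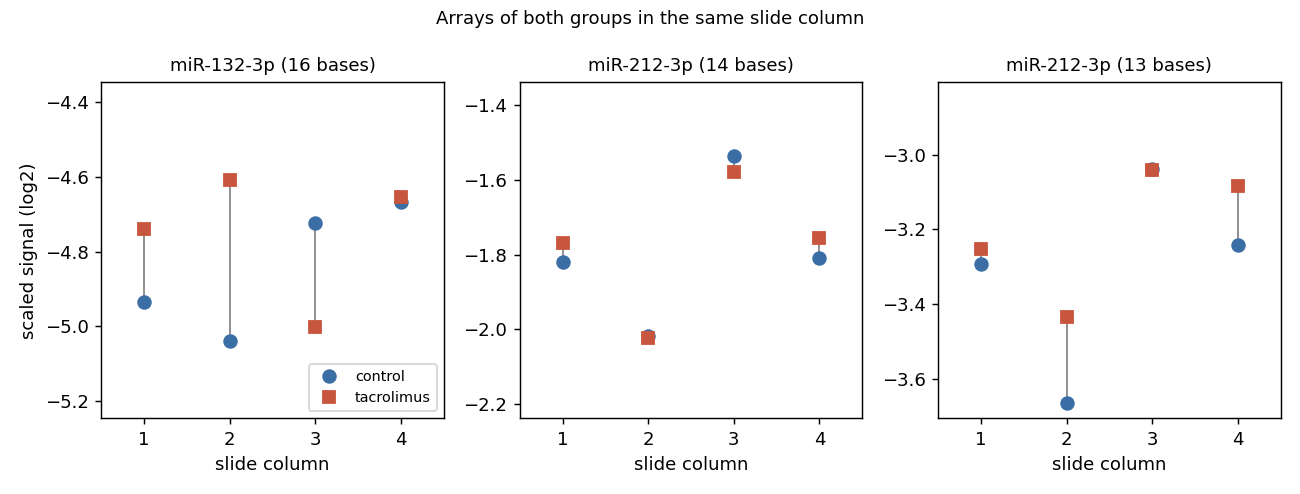
Scaled signal (log2) by slide column for the 16-base probe of miR-132-3p, the 14-base probe of miR-212-3p and the 13-base probe of miR-212-3p; circles are control arrays, squares tacrolimus arrays, and lines join the arrays of a column. For the 14-base probe the arrays of a column differ by at most 0.052, while the columns differ by up to 0.46.

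Over all 8 arrays no joint variation of the scaled signals of the members was detectable. Among control arrays, replicate 2 was lowest in both miRNAs. Among tacrolimus arrays, replicate 2 was highest in miR-132-3p and lowest in miR-212-3p, and replicate 3 was lowest in miR-132-3p and highest in miR-212-3p. With 4 arrays a group is too small for a correlation of its own, and whether the groups differ in this was not tested. Pearson's r between miR-132-3p and miR-212-3p was -0.027 (exact permutation p = 0.944) and Spearman's rho -0.071 (exact permutation p = 0.882) over 8 arrays. No other relation between miRNAs was tested, and the likeness of other miRNAs given below is a description. Without control 2 and tacrolimus 3, the arrays farthest from the median of miR-132-3p, r was -0.22. After subtracting each group's mean it was -0.040. The unscaled intensities share each array's overall brightness and correlated at 0.68.

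The miRNAs whose scaled signal over the 8 arrays was most like each member, after subtracting group means, differed between the members. For miR-132-3p they were miR-148a-3p (r = 0.92), miR-10b-5p (0.86), miR-10a-5p (0.86), miR-181c-5p (0.83) and miR-200c-3p (0.82). For miR-212-3p they were miR-22-5p (r = 0.95), miR-5097 (0.94), miR-218-5p (0.86), miR-378a-3p (0.86) and miR-378a-5p (0.84). miR-212-3p came at rank 118 of 193 in likeness to miR-132-3p. These correlations describe 8 arrays that were scaled alike and share slide columns in pairs, and are given without a test.

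miRNAs of similar signal show how far values varied between arrays of a group at that brightness, sample variation included. The 40 tested miRNAs nearest to miR-132-3p by rank of control signal had a median residual SD of 0.178, against 0.176 for miR-132-3p. The 40 nearest to miR-212-3p had one of 0.127, against 0.191 for miR-212-3p, and 10 of them had a larger one. Of the 3 just above and 3 just below miR-132-3p, miR-142a-5p had the largest difference (0.55, adjusted p = 0.302), and of those around miR-212-3p it was miR-196a-5p (0.14, adjusted p = 0.484). Neither passed in limma.

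The partner arms miR-132-5p and miR-212-5p, cut from the same hairpins, were detected on no array (0 of 8 each, both probes). At most 3 of 19 kept spots were well above background, for miR-132-5p on control 1. The mean intensity of the partner arms' probes lay between -3.67 and 13.7 on every array. The highest values for miR-132-5p were 13.7 on control 1 and 11.9 on tacrolimus 4, the arrays with the widest negative control spread (SD 10.5 and 20.01). All their scaled values were at the floor, and no fold is given.

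Of a list of 13 other miRNAs linked to neuronal activity or CREB, which includes both partner arms, 10 were detected on no array (76.9%, beside 78.2% of all 1023 names), among them miR-124-3p and miR-9-5p of neurons, miR-134-5p, which limits dendritic spine growth, and miR-138-5p. miR-9-3p was detected on 1 array of each group and was not tested. The remaining 2, the p53 target miR-34a-5p and the widely expressed miR-22-3p, were tested. In limma 0 of these 2 passed (0 at an unadjusted p under 0.05), with differences of -0.18 (SE 0.227) and -0.022 (SE 0.083) and a median of -0.099, beside 0.039 over all tested miRNAs. Of 6 neuron markers, miR-128-3p and miR-218-5p were detected on every array, at differences of -0.062 and -0.035, and the other 4 on none (0).

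Of 10 calcineurin-NFAT linked miRNAs, 5 were tested, 1 rose and 4 did not pass, beside 3.09% of all tested miRNAs past the threshold (2 of the 5 had an unadjusted p under 0.05, beside 15.5%). The one that rose was miR-199b-5p, an NFAT-responsive miRNA of heart muscle, from -2.56 ± 0.17 to -2.06 ± 0.14 (SD, n = 4 each), a difference of 0.50 (SE 0.106, adjusted p = 0.0478 in limma). This call was lost in 19 of 23 alternative settings, a check added after seeing the data, and its difference lay between 0.39 and 0.67 over all 23. It was lost without each array except tacrolimus 3 (adjusted p from 0.0385 to 0.170). Outside this list, miR-199a-5p (0.47), miR-199a-3p (0.49), miR-214-3p (0.69), miR-574-5p (0.50) and miR-1949 (0.55) passed at the same adjusted p in limma. Whether the rise of miR-199b-5p is tied to calcineurin or NFAT was not tested, nor was whether its probe also reads miR-199a-5p. The other tested members of the list stood at 0.34 for the lymphocyte miR-155-5p, 0.26 for miR-195a-5p (unadjusted p = 0.0203 in limma), 0.069 for miR-24-3p and 0.028 for the NFAT-induced miR-23a-3p. All 5 differences lay above 0, as did 59.3% of all tested miRNAs, and their median was 0.26. The striated muscle members miR-133a-3p, miR-133b-3p, miR-499-5p and miR-208a-3p were detected on no array (0), and miR-1a-3p on 0 control and 2 tacrolimus arrays.

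Of 10 angiogenic and vascular miRNAs, all 10 were tested and 0 passed in limma (0 at an unadjusted p under 0.05). Their differences ran from -0.075 for the smooth muscle miR-145a-5p to 0.36 for the hypoxia-induced miR-210-3p, with a median of 0.020. The endothelial miR-126a-3p stood at 1.89 ± 0.10 in control and 1.86 ± 0.043 in tacrolimus kidneys (SD, n = 4 each).

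**Figure D4:**
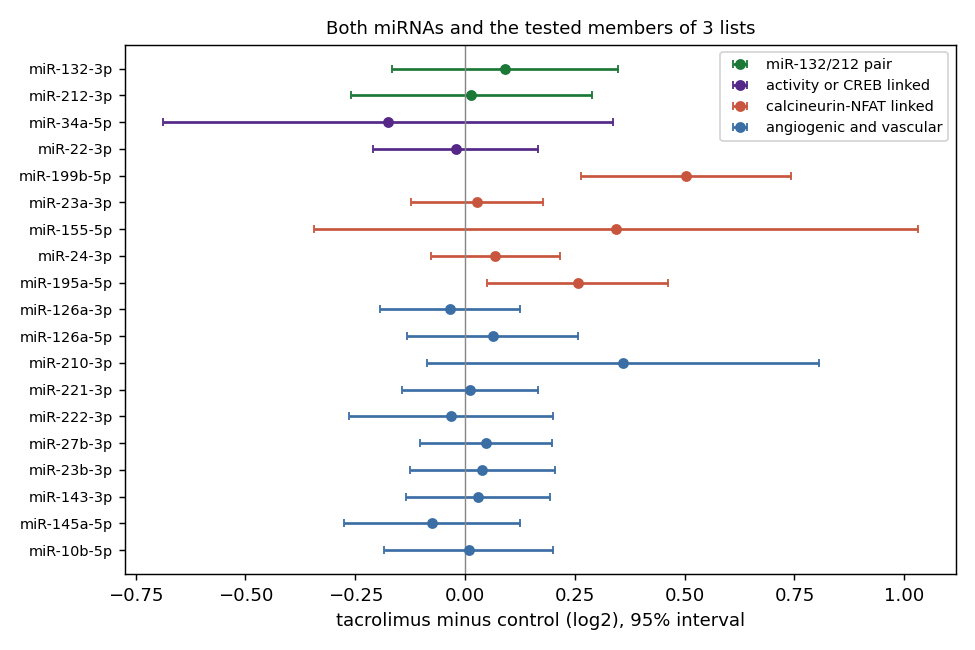
Difference between groups (tacrolimus minus control, log2) with 95% intervals from limma for both members, the 2 tested activity or CREB linked, 5 calcineurin-NFAT linked and 10 angiogenic and vascular miRNAs. miR-199b-5p at 0.50 is the one that passed after adjustment over all tested miRNAs, and the intervals of both members include 0.

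Markers of blood cells were also measured in the same kidneys. Their scaled signals were summed on a linear scale, not as log2, so that the brightest markers weigh most. Among leukocyte markers these were miR-223-3p and miR-142a-3p (-2.26 and -2.32 as log2 in control), with miR-155-5p at -4.39. The sum of the 5 leukocyte markers ranged from 0.428 to 0.690 on control and from 0.700 to 0.909 on tacrolimus arrays. That of 3 erythrocyte markers ranged from 2.09 to 5.81 and from 1.88 to 2.50. In limma 0 of the 5 and 0 of the 3 passed the threshold (3 of each at an unadjusted p under 0.05, beside 15.5% of all tested miRNAs). Whether cells of these kinds contribute to the signal of miR-132-3p or miR-212-3p was not tested.

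The sign of both differences depended on the setting, while 0 of 24 alternative settings brought either miRNA past the threshold in limma. Values of miR-132-3p ran from -0.11 to 0.40 and those of miR-212-3p from -0.14 to 0.20. The highest value of each came from the authors' value table, which is not scaled between arrays. The median of all tested miRNAs there was 0.19. Without tacrolimus 4 both differences lay below 0, at -0.053 for miR-132-3p and -0.11 for miR-212-3p, and the median of all tested miRNAs was then -0.064.

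**Figure D5:**
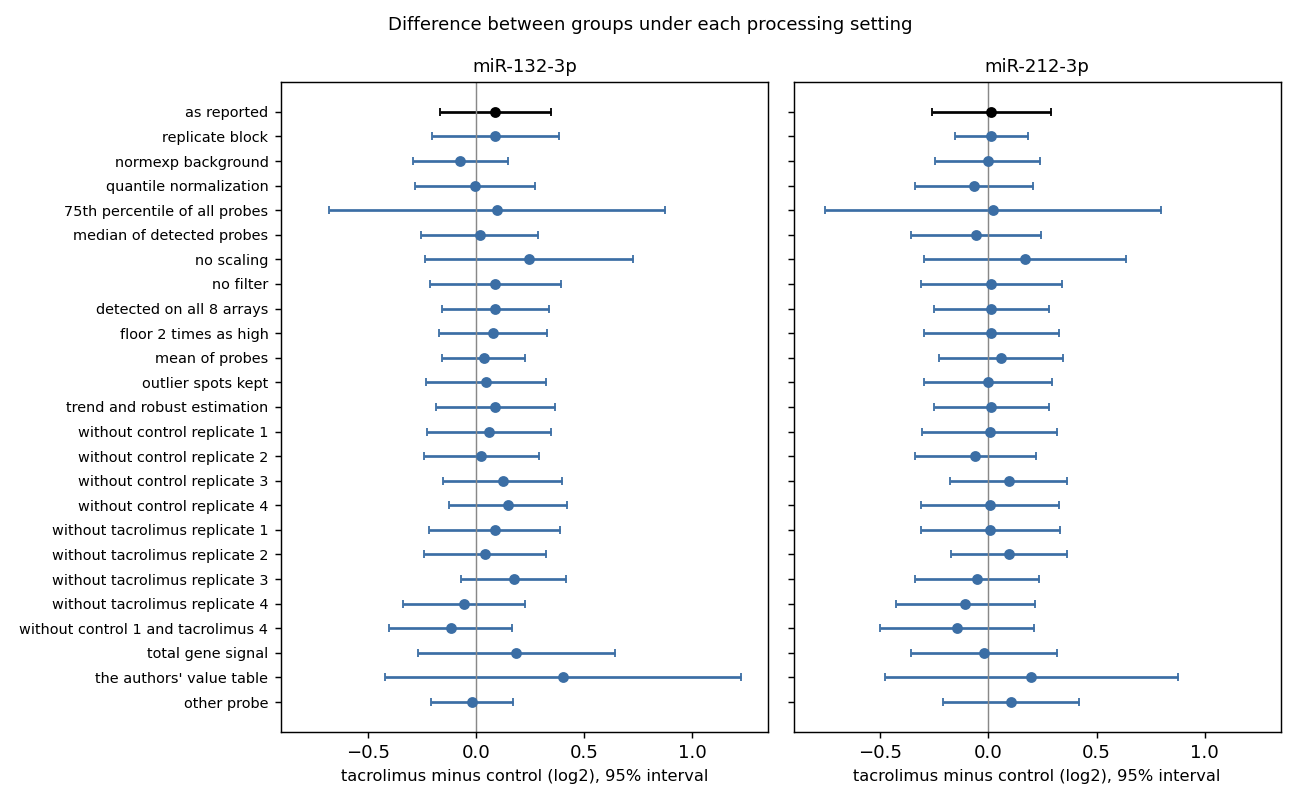
Difference between groups (tacrolimus minus control, log2) with 95% intervals under each processing setting for miR-132-3p, left, and miR-212-3p, right; the black point is the value as reported. The points scatter on both sides of 0, from -0.11 to 0.40 and from -0.14 to 0.20, and every interval includes 0.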

How the data were processed

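For every array the authors deposited linear spot intensities from the scanning software. Per the file headers this was Feature Extraction 10.7.3.1, and signals were background-subtracted and detrended within the array, with no scaling between arrays. The authors' deposited value table equalled the software's total gene signal (100% of cells, tolerance 1e-06), so it is a linear intensity with undetected miRNAs at 0.1. The submitters' processing notes name limma without a role. The labels' protocols name a kit meant for mRNA, so the labelling of the miRNA is unknown here.

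With R 4.3.3 and limma 3.58.1, outlier spots were left out, the spots of a probe were averaged, signals were divided by their 75th percentile over the 252 probes seen on all 8 arrays, raised to a floor (the lowest detected signal per array, median of the arrays, -5.96 as log2), and log2 was taken. The brightest probe stood for its miRNA, which was tested if detected on at least 4 arrays (194 of 1023). Groups were compared with limma (two-sided, no covariate, Benjamini-Hochberg over 194, 9.16 degrees of freedom). Of these steps, only the limma comparison was run on simulated data, made as log2 values per miRNA with independent noise. The lists named with their counts in the text, the naming rule (all probes, partner arms, list members past the threshold or the 2 of smallest p, the 5 most alike and 3 neighbours in signal on either side) and the members were chosen with earlier results of these data known. Where more list members than this are named, they were chosen after their values were seen. Sequences are from RefSeq (GRCm38.p6) and the array files. The array headers name an older assembly, whose coordinates are not used here.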

Additional observations from a re-analysis of the deposited data

Results flagged for a closer look

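Of 104 groups of 4 arrays examined for both members and others named here, 5 contained 1 array well apart from its group by the measure used, where chance gives 5.2. Of these, 2 concern the 15-base probe of miR-132-3p, on which control 3 exceeded the other control arrays by 0.26 (log2) and tacrolimus 2 exceeded the other tacrolimus arrays by 0.19. In both groups the other 3 values were at the floor, which fixes the measure, so these 2 say nothing about an outlying array. Control 3 itself was not detected with this probe. Without them, 3 of 102 groups remained, where chance gives 5.1. The longer probes of both members and the 13-base probe of miR-212-3p had no such array. Tacrolimus 3 lay 0.09 above the others for miR-27b-3p, the deviation of tacrolimus 4 for miR-451a was -0.39, and that of tacrolimus 1 for miR-196a-5p was -0.28.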

How the results depend on the processing

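Neither member passed the threshold in limma under any of 24 alternatives (adjusted p from 0.473 to 0.997 for miR-132-3p and from 0.612 to 1.00 for miR-212-3p). The sign of miR-132-3p was kept in 19 of them and that of miR-212-3p in 15. It turned for both with normexp background (-0.072 and -0.0029), with quantile normalization (-0.0038 and -0.067) and without control 1 and tacrolimus 4 (-0.11 and -0.14). The other probe of miR-132-3p, counted among the turned signs, gave -0.018, but 3 of 4 values of each group were at the floor and its unscaled means were 27.0 and 33.0, so it gives no direction. For miR-212-3p the sign also turned with the median of detected probes (-0.059), with outlier spots kept (-0.0024) and with total gene signal (-0.019). Leaving out single arrays gave -0.053 to 0.17 for miR-132-3p, below 0 without tacrolimus 4. It gave -0.11 to 0.094 for miR-212-3p, below 0 without control 2, tacrolimus 3 or tacrolimus 4. Without scaling, the median of all tested miRNAs was 0.19, beside 0.25 for miR-132-3p and 0.17 for miR-212-3p. miR-132-3p missed the filter when detection on all 8 arrays was required and was then added to the fit.

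The count of miRNAs past the threshold in limma, 6 as reported, was 0 with the replicate block (31 at an unadjusted p under 0.05). A count of 0 also came from unfiltered data, from a higher floor, from averaging probes, from keeping outlier spots, from trend and robust estimation, from unscaled signals, from scaling to the percentile of all probes, from total gene signal, from the deposited value table, and from leaving out control 1 and tacrolimus 4 together (2 to 37 at that unadjusted p). It was 1, lower, with normexp (22) and 0 to 7 without single arrays (22 to 32), namely 0 without control 1, control 2, tacrolimus 1 or tacrolimus 4, 1 without control 3 (lower), 2 without control 4 (both lower) and 2 without tacrolimus 2 (1 higher, 1 lower). The causes were not tested. With the replicate block the differences of the members stayed at 0.091 and 0.014. Deviations of same-numbered arrays from their group means correlated at 0.0994 to 0.135, over 0.1 in 3 of 4 pairs, and 2 of 8 arrays correlated best with their own number, so the numbers were not taken to pair the samples.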

Other observations

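Chosen after its values were seen, the likeness of miR-212-3p within slide columns was set against all 194 tested miRNAs. With the column as a block, its residual SD was 0.033 against 0.191 without, a ratio of 0.173, which was the lowest of the 194 (median 0.964). The next lowest were miR-677-3p (0.240), miR-22-5p (0.318) and miR-28a-5p (0.324), and 16 miRNAs had a ratio under 0.5. The ratio of miR-132-3p was 1.20, at rank 156. The column holds 1 array of each group and carries the replicate number of the labels. What else the arrays of a column share is unknown here.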
